A study of Bos taurus with 14 samples.

Results

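Mitochondrial ribosomal protein genes are the nuclear genes whose symbols begin with MRPL, for the large subunit, or MRPS, for the small subunit, followed by a number. Every probe set of the array with 1 gene symbol of this form was taken, and where a gene had several probe sets, the one with the highest mean over all arrays represented it. The 84 probe sets gave 67 genes, 43 with MRPL and 24 with MRPS symbols, out of 9155 genes that the array reads under a single symbol. Expression was measured in *M. longissimus dorsi* (LD) muscle of 14 Charolais × Limousin crossbred heifers, 1 Affymetrix Bovine array per animal, as log2 values. Of the heifers, 7 had grazed pasture outdoors (outdoor/pasture-fed) and 7 had been housed indoors on a concentrate diet (indoor/concentrate-fed), so that the effects of feed and of housing cannot be told apart. The labels give no age. Within a system the heifers were kept in several management groups, whereas the tests treat each animal as independent.

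Mitochondria translate their own small genome with a ribosome of their own. Its ribosomal RNAs come from mitochondrial DNA, while all of its proteins are encoded in the nucleus, made in the cytosol and imported. This ribosome makes core membrane subunits of the respiratory chain complexes I, III and IV and of ATP synthase, so oxidative tissues such as muscle depend on it. Its proteins fall into those with a counterpart in bacterial ribosomes and those found only in mitochondria, and both subunits hold both kinds.

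No mitochondrial ribosomal protein gene differed between the production systems past an adjusted *p* of 0.05 (limma with Benjamini-Hochberg adjustment), whether it was adjusted over all 24016 probe sets, of which 0.0167% passed, or over the varying ones fitted alone, of which 0.343% passed. The lowest adjusted values were 0.247 and 0.101, both for *MRPL50*. The deposited values of 8 of the 67 genes were nearly constant over the arrays, with a standard deviation (SD) of at most 0.000121, and carry no information on the groups. These were *MRPL14*, *MRPL32*, *MRPL36*, *MRPL42*, *MRPL52*, *MRPL57* and *MRPL58* of the large subunit and *MRPS22* of the small subunit. The other 59, whose SD was at least 0.0454, are called varying here. Among all probe sets 9623 had an SD above 0.01 and were varying.

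The 59 varying genes divided almost evenly, with 30 higher and 29 lower in the outdoor/pasture-fed animals. Their median difference, outdoor/pasture-fed minus indoor/concentrate-fed, was 0.0039 on the log2 scale, beside -0.0077 over all varying probe sets and -0.018 over all varying genes with 1 symbol. The differences were also small in size, with a median absolute value of 0.060 beside 0.099 over all varying probe sets, while the median spread between animals of a group was 0.14 and 0.17 log2 units, respectively. In 7 genes (11.9%) the unadjusted *p* was under 0.05, a level that 19.9% of all varying probe sets reached. Of these 7, 4 were higher in the outdoor/pasture-fed animals, where the share over all varying probe sets was 9.23%, and 3 were lower, where it was 10.7%. In no gene were the 2 groups free of overlap, which was the case for 0.811% of all varying probe sets. The 95% interval of the difference lay within a 1.5-fold change either way for 57 of the 59 genes (96.6%, against 82.8% of all varying probe sets) and within a 1.2-fold change for 37 (62.7% against 40.5%). The exceptions at 1.5-fold were *MRPL50* and *MRPS18A*. Since muscle was measured as a whole tissue, fewer cells of a type and less RNA per cell cannot be told apart in these values.

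**Figure D1:**
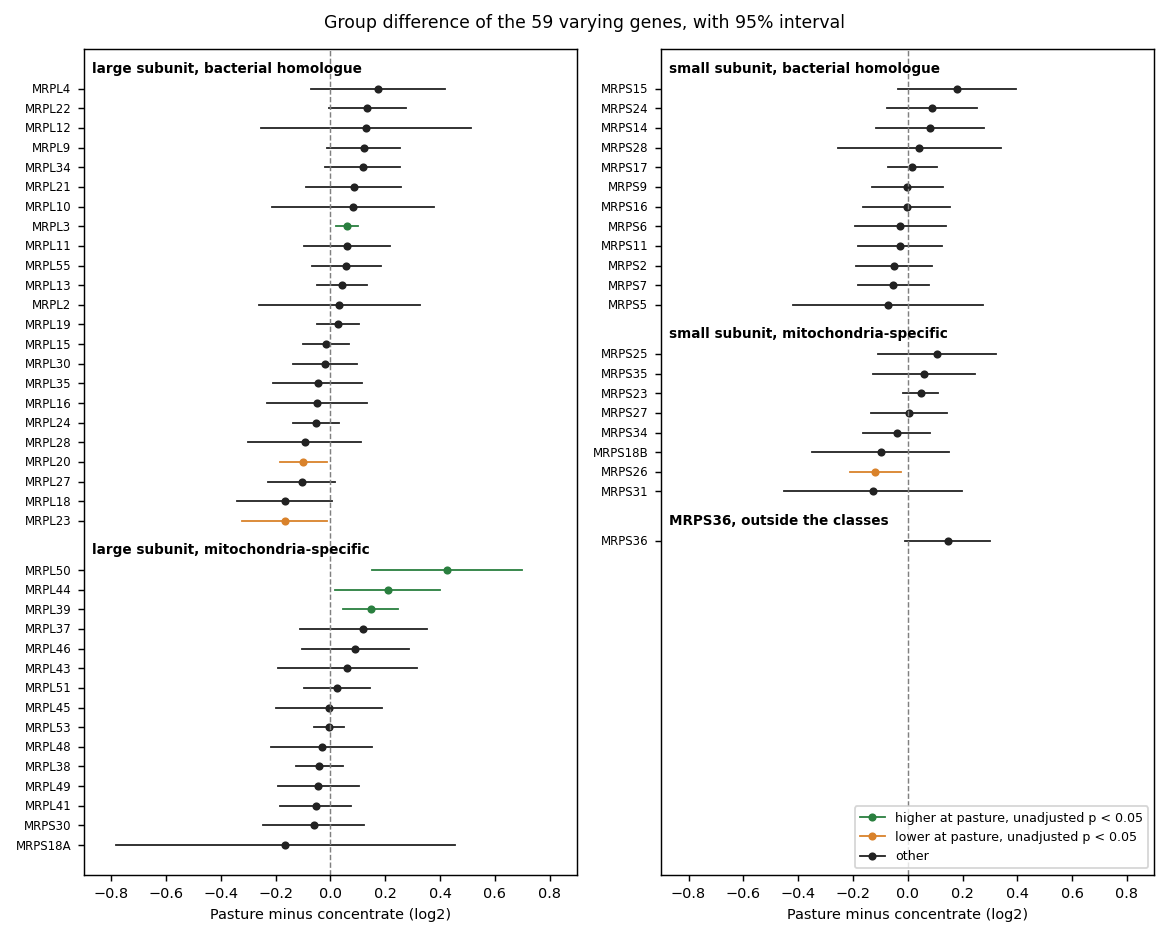
Difference between the production systems (x axis, outdoor/pasture-fed minus indoor/concentrate-fed, log2 units) for each of the 59 varying mitochondrial ribosomal protein genes, in 4 classes and with *MRPS36* apart. Points are differences of the means of 7 and 7 animals and lines are 95% intervals from limma, and the intervals of the 4 green genes lie above 0, those of the 3 orange genes lie below 0, and those of all other genes include 0.

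Among large subunit proteins found only in mitochondria, 19 genes were measured, 15 varied, and 7 of these were higher and 8 lower in outdoor/pasture-fed animals, with a median difference of -0.0043. At an unadjusted *p* under 0.05 3 of the 15 were higher and none lower, which is 20.0% in either direction beside 19.9% of all varying probe sets. *MRPL50* had the largest difference of the whole family. Its log2 level ran from 9.57 over a median of 9.61 to 10.11 in the outdoor/pasture-fed animals and from 8.87 over 9.42 to 9.59 in the indoor/concentrate-fed animals. All 7 outdoor/pasture-fed animals lay above the indoor/concentrate-fed mean, and 4 of them above every indoor/concentrate-fed animal. The difference was 0.43 ± 0.13 (SE, n = 7 per group), or 1.34-fold, with a limma *p* of 0.0053, an adjusted *p* of 0.247 and a two-sided exact permutation *p* of 0.0023.

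*MRPL39* is related in sequence to threonyl-tRNA synthetase. It ran from 9.46 over 9.53 to 9.62 in the outdoor/pasture-fed and from 9.19 over 9.38 to 9.51 in the indoor/concentrate-fed animals. The outdoor/pasture-fed animals were tightly grouped (SD 0.054) beside the others (SD 0.11), and 4 of the 7 exceeded every indoor/concentrate-fed animal. The difference was 0.15 ± 0.046 (SE, n = 7 per group, exact permutation *p* = 0.0064, limma adjusted *p* = 0.264). A second, varying probe set of *MRPL39* had a difference of 0.21 (SE 0.089), and its remaining probe set was flat. *MRPL44* carries a domain related to ribonuclease III. Its values were 11.03, 11.24 and 11.43 (lowest, median, highest) in outdoor/pasture-fed animals and 10.81, 10.94 and 11.38 in indoor/concentrate-fed animals. The upper indoor/concentrate-fed value came from replicate 4, and the other 6 animals of that group lay below the outdoor/pasture-fed mean. The difference was 0.21 ± 0.088 (SE, n = 7 per group, exact permutation *p* = 0.038, limma adjusted *p* = 0.390), and in 9 of the 14 fits that left out an array the unadjusted limma *p* was at or above 0.05, reaching 0.073.

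On the lower side of this class, *MRPL38*, which resembles phosphatidylethanolamine-binding proteins, differed by -0.041 (SE 0.039) and *MRPL41*, a protein also described in apoptosis, by -0.055 (SE 0.060). Both differences were smaller than the SD within either group. These SDs were 0.057 (outdoor/pasture-fed) and 0.088 (indoor/concentrate-fed) for *MRPL38* and 0.13 and 0.091, respectively, for *MRPL41*. The limma adjusted *p* was 0.760 for *MRPL38* and 0.793 for *MRPL41*. *MRPL37*, *MRPL43*, *MRPL45*, *MRPL46*, *MRPL48*, *MRPL49*, *MRPL51*, *MRPL53*, *MRPS18A* and *MRPS30* complete the varying genes of the class. The proteins of the last pair sit in the large subunit despite their symbols. These 10 genes had differences from -0.16 to 0.12, and their smallest adjusted *p* was 0.733.

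**Figure D2:**
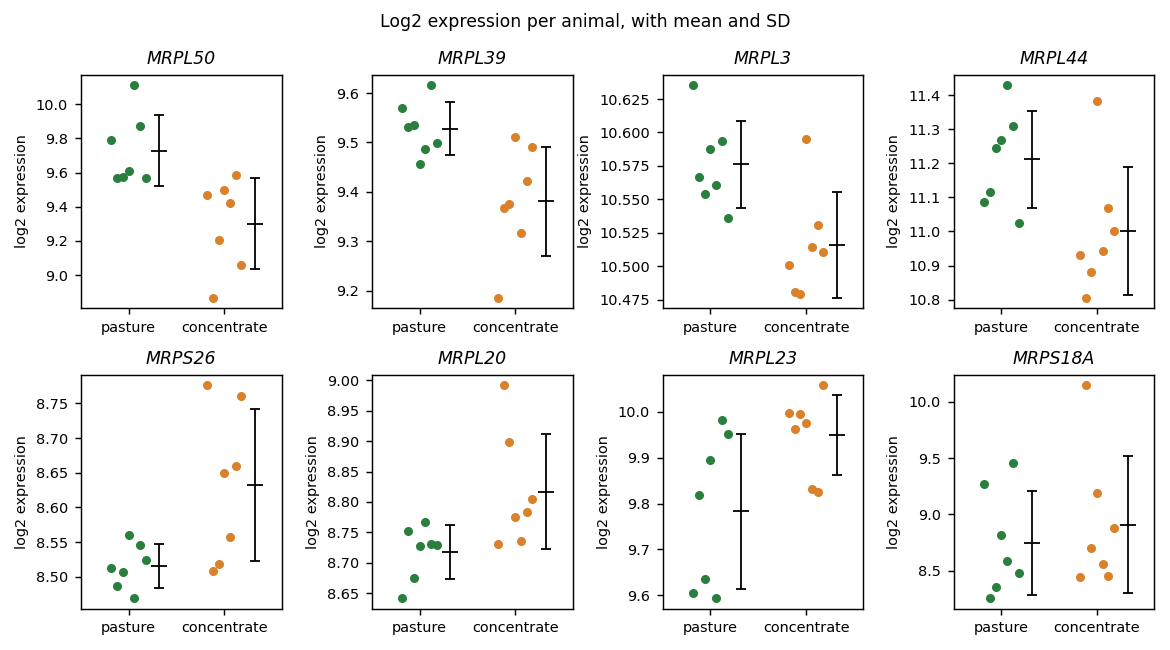
Log2 expression (y axes, each with its own scale) of 8 mitochondrial ribosomal protein genes in each animal, outdoor/pasture-fed in green and indoor/concentrate-fed in orange, with the group mean and SD beside the 7 points. In *MRPL50* and *MRPL39* 4 outdoor/pasture-fed animals lie above all others, and in *MRPS18A* the highest value, 10.14, belongs to a single indoor/concentrate-fed animal.

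Large subunit proteins with a bacterial counterpart were the largest class. Of 26 genes measured 23 varied, 13 were higher and 10 lower in outdoor/pasture-fed animals, and the median difference was 0.033. *MRPL3*, a homologue of the protein that reaches into the peptidyl transferase centre, ran from 10.54 over 10.57 to 10.64 in outdoor/pasture-fed and from 10.48 over 10.51 to 10.60 in indoor/concentrate-fed animals. Both groups were narrow, with SDs of 0.033 and 0.040, and all 7 outdoor/pasture-fed animals lay above the indoor/concentrate-fed mean. The difference was small, 0.060 ± 0.019 (SE, n = 7 per group) or 1.04-fold, with an exact permutation *p* of 0.012 and a limma adjusted *p* of 0.267. Its unadjusted *p* of 0.0084 was 0.083 when the varying probe sets were fitted alone, and 0.33 after each array was centred on the median of the family.

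*MRPL20* and *MRPL23* were lower in outdoor/pasture-fed animals at an unadjusted *p* under 0.05. *MRPL20*, whose bacterial homologue is needed early in assembly of the large subunit, ran from 8.64 over 8.73 to 8.77 in outdoor/pasture-fed and from 8.73 over 8.78 to 8.99 in indoor/concentrate-fed animals. Of the outdoor/pasture-fed animals 5 lay below every indoor/concentrate-fed animal, and the difference was -0.099 ± 0.039 (SE, n = 7 per group, exact permutation *p* = 0.012, limma adjusted *p* = 0.360). Its second probe set differed by -0.16 (SE 0.069). After centring on the family the unadjusted *p* of *MRPL20* was 0.10. *MRPL23*, which lies at the exit of the peptide tunnel, ran from 9.59 over 9.82 to 9.98 in outdoor/pasture-fed and from 9.83 over 9.98 to 10.06 in indoor/concentrate-fed animals. The outdoor/pasture-fed animals were the more scattered (SD 0.17 against 0.088), 4 of them below all indoor/concentrate-fed animals and the rest among them. The difference was -0.17 ± 0.071 (SE, n = 7 per group, exact permutation *p* = 0.045, limma adjusted *p* = 0.399). The other 2 probe sets of *MRPL23* differed by -0.22 (SE 0.072) and -0.23 (SE 0.081). The unadjusted *p* of *MRPL23* was at or above 0.05 in 8 of the 14 fits that left out an array, reaching 0.077. Probe sets of a gene are read from the same arrays and are not replicates of one another.

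Among the other genes of this class, *MRPL9*, whose bacterial homologue stretches out from the ribosome, had a split pattern. It ran from 11.29 over 11.59 to 11.74 in outdoor/pasture-fed and from 11.31 over 11.46 to 11.57 in indoor/concentrate-fed animals. Of the outdoor/pasture-fed animals 6 lay above every indoor/concentrate-fed animal, and replicate 5 lay below all of them. The difference was 0.12 ± 0.061 (SE, n = 7 per group, exact permutation *p* = 0.075, limma adjusted *p* = 0.485). Without outdoor/pasture-fed replicate 5 it was 0.17, with a limma adjusted *p* of 0.225. *MRPL22*, another protein of the peptide tunnel, differed by 0.13 (SE 0.065) and *MRPL34* by 0.12 (SE 0.064). In the opposite direction, the differences were -0.17 (SE 0.080) for *MRPL18*, of the central protuberance, -0.11 (SE 0.056) for *MRPL27*, whose bacterial homologue reaches the peptidyl transferase centre, -0.095 (SE 0.094) for *MRPL28* and -0.053 (SE 0.039) for *MRPL24*. The lowest adjusted *p* of these 6 genes was 0.459. The difference of *MRPL28* was -0.022 without outdoor/pasture-fed replicate 3, whose value of 7.35 was the lowest of all animals, and that of *MRPL24* was -0.020 with array weights. *MRPL2*, *MRPL4*, *MRPL10*, *MRPL11*, *MRPL12*, *MRPL13*, *MRPL15*, *MRPL16*, *MRPL19*, *MRPL21*, *MRPL30*, *MRPL35* and *MRPL55* are the remaining 13 varying genes of the class, with differences from -0.051 to 0.17 and a smallest adjusted *p* of 0.605.

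All 12 small subunit genes with a bacterial counterpart varied, 5 higher and 7 lower in outdoor/pasture-fed animals, with a median difference of -0.0029 and none at an unadjusted *p* under 0.05. *MRPS15* had the largest difference among them, 0.18 ± 0.099 (SE, n = 7 per group, limma adjusted *p* = 0.531), its values running from 11.33 to 11.91 in outdoor/pasture-fed and from 11.27 to 11.77 in indoor/concentrate-fed animals. *MRPS7*, a protein of the head of the small subunit, differed by -0.052 (SE 0.059). *MRPS2*, *MRPS5*, *MRPS6*, *MRPS9*, *MRPS11*, *MRPS14*, *MRPS16*, *MRPS17*, *MRPS24* and *MRPS28* lay between -0.072 and 0.088, with a smallest adjusted *p* of 0.722. 

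Of the 9 small subunit genes found only in mitochondria 8 varied, 4 higher and 4 lower, with a median of -0.018. *MRPS26* was lower in outdoor/pasture-fed animals at an unadjusted *p* under 0.05. It ran from 8.47 over 8.51 to 8.56 in outdoor/pasture-fed and from 8.51 over 8.65 to 8.78 in indoor/concentrate-fed animals, so that the outdoor/pasture-fed animals were the more alike (SD 0.032 against 0.11) and all 7 lay below the indoor/concentrate-fed mean. The difference was -0.12 ± 0.043 (SE, n = 7 per group, exact permutation *p* = 0.020, limma adjusted *p* = 0.318). *MRPS23* differed by 0.048 (SE 0.030, limma adjusted *p* = 0.583). *MRPS18B*, *MRPS25*, *MRPS27*, *MRPS31*, *MRPS34* and *MRPS35* ranged from -0.13 to 0.11, with a smallest adjusted *p* of 0.750. *MRPS36*, which was counted in no class because it is also known as a subunit of the 2-oxoglutarate dehydrogenase complex, differed by 0.15 ± 0.072 (SE, n = 7 per group, limma adjusted *p* = 0.472). Taking the subunits as wholes, the median difference was 0.026 over 38 varying large subunit genes, of which 20 were higher and 18 lower, and -0.0029 over 20 varying small subunit genes, of which 9 were higher and 11 lower.

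Although the groups differed little, the genes moved together from animal to animal. Indoor/concentrate-fed replicate 4 was above the gene's mean over the arrays in 58 of the 59 varying genes (98.3%, while 57.9% of all varying probe sets were above theirs in this animal), the exception being *MRPL50*. It held the highest value of all 14 animals in 15 genes, among them *MRPL12*, *MRPS5*, *MRPS14* and *MRPS28*. Outdoor/pasture-fed replicate 6 was above the mean in 49 genes, replicate 1 in 42, replicate 4 in 40 and replicate 7 in 35. The other outdoor/pasture-fed animals, replicates 2, 3 and 5, were above it in 17, 18 and 16 genes, and replicate 5 held the lowest value of all animals in 20 genes. Among the indoor/concentrate-fed animals, replicate 7 was above the mean in 40 genes, whereas the remaining 5 were above it in 10 to 26. Both groups thus held animals with high and with low levels across the family.

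**Figure D3:**
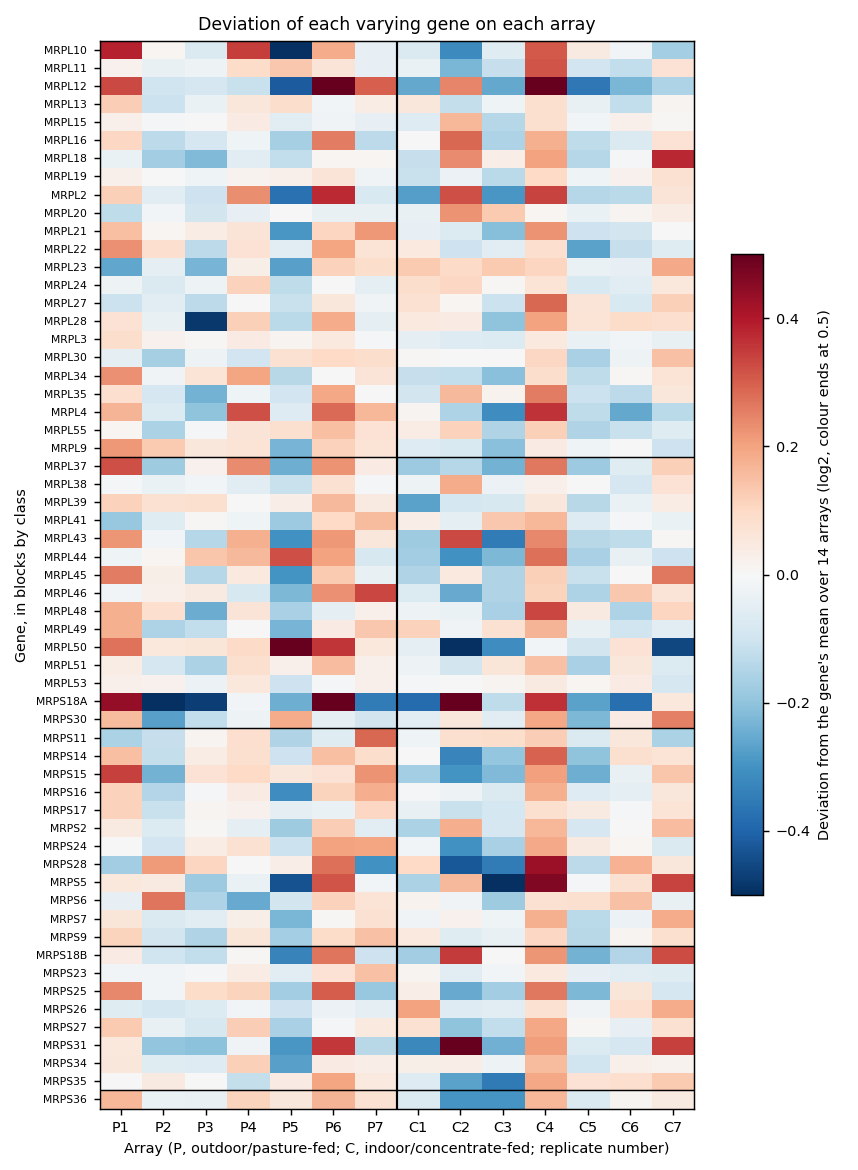
Deviation of each varying mitochondrial ribosomal protein gene (rows, in blocks by class) from its own mean over the 14 arrays, in log2 units, on each array (columns, P for outdoor/pasture-fed and C for indoor/concentrate-fed, with the replicate number). Array C4 is above the mean in 58 of 59 genes and P5 in 16, and the colour scale ends at 0.5 log2 units either way.

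The median deviation of the varying genes from their own means ran from -0.12 over 0.037 to 0.11 log2 units among the outdoor/pasture-fed animals and from -0.12 over -0.029 to 0.17 among the indoor/concentrate-fed animals, so the groups overlapped over nearly their whole range. Over all varying probe sets the same median stayed between -0.028 and 0.034. After group means were removed, the first principal component held 41.4% of the variance of the family, and 57 of the 59 genes had weights of the same sign, *MRPL20* and *MRPL50* being the exceptions. The component held 20.9% over all varying genes with 1 symbol, where 2422 and 2219 genes had opposite signs. In both families compared further on it held more than here, 60.6% in the complex I genes, with all 33 of the same sign, and 47.5% in the cytosolic ribosomal protein genes, with 33 of 36. These shares are descriptions, since the genes share arrays, normalisation and RNA preparations. The count of genes higher in outdoor/pasture-fed animals at an unadjusted *p* under 0.05 was 10 in place of 4 with indoor/concentrate-fed replicate 4 left out, and 7 with outdoor/pasture-fed replicate 5 left out, while the count of lower genes was 1 in place of 3 without outdoor/pasture-fed replicate 1. No gene passed the adjusted threshold in any of these fits. The share of all varying probe sets at that unadjusted level was not counted in these fits. Whether the shifts are particular to the family was not tested.

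The 5 genes with the largest spread over all animals, described after their values had been seen, were *MRPS18A* (SD 0.52), *MRPL12* (0.33), *MRPL50* (0.32), *MRPS5* (0.29) and *MRPS31* (0.28). *MRPS18A* ran from 8.26 over 8.59 to 9.45 in outdoor/pasture-fed and from 8.44 over 8.70 to 10.14 in indoor/concentrate-fed animals, and its top value stood alone in indoor/concentrate-fed replicate 2. That animal also had the highest *MRPS31*, 11.39, yet the lowest *MRPL50*, 8.87. In all it held the highest value in 9 genes and the lowest in 11, a mixed profile unlike that of replicate 4. *MRPL12*, which is also known to bind the mitochondrial RNA polymerase, ran from 9.13 to 10.09 in outdoor/pasture-fed and from 9.19 to 10.10 in indoor/concentrate-fed animals. Its difference of 0.13 had an SE of 0.18. *MRPS5* ran from 8.69 to 9.44 and from 8.51 to 9.59, respectively, with a difference of -0.072 (SE 0.16).

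Subunits of respiratory complex I offer a comparison, since this enzyme contains both proteins made on mitochondrial ribosomes and proteins encoded by the nuclear NDUF genes. Of 37 NDUF genes measured 33 varied, 32 were higher and 1 lower in outdoor/pasture-fed animals, and the median difference was 0.11, where the mitochondrial ribosomal protein genes had 30 higher, 29 lower and 0.0039. The NDUF genes were taken by symbol and are called complex I genes here. They include *NDUFA4* (difference 0.052), whose protein has been assigned to cytochrome c oxidase. At an unadjusted *p* under 0.05 11 NDUF genes (33.3%) were higher, a level that 9.23% of all varying probe sets reached in that direction. None of the NDUF genes passed the adjusted threshold (lowest limma adjusted *p* = 0.187). Of the cytosolic ribosomal protein genes, 63 were measured and 36 varied, 12 higher and 24 lower, with a median of -0.0073. At an unadjusted *p* under 0.05 1 was lower (2.78%, beside 10.7% of all varying probe sets in that direction). These genes were also taken by symbol. They include the ribosomal protein-like genes *RPS27L* (difference -0.14), *RPL7L1* (-0.10), *RPL3L* (0.063) and *RPL26L1* (-0.031). The 3 families were read on the same arrays, and the differences between them were not tested.

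**Figure D4:**
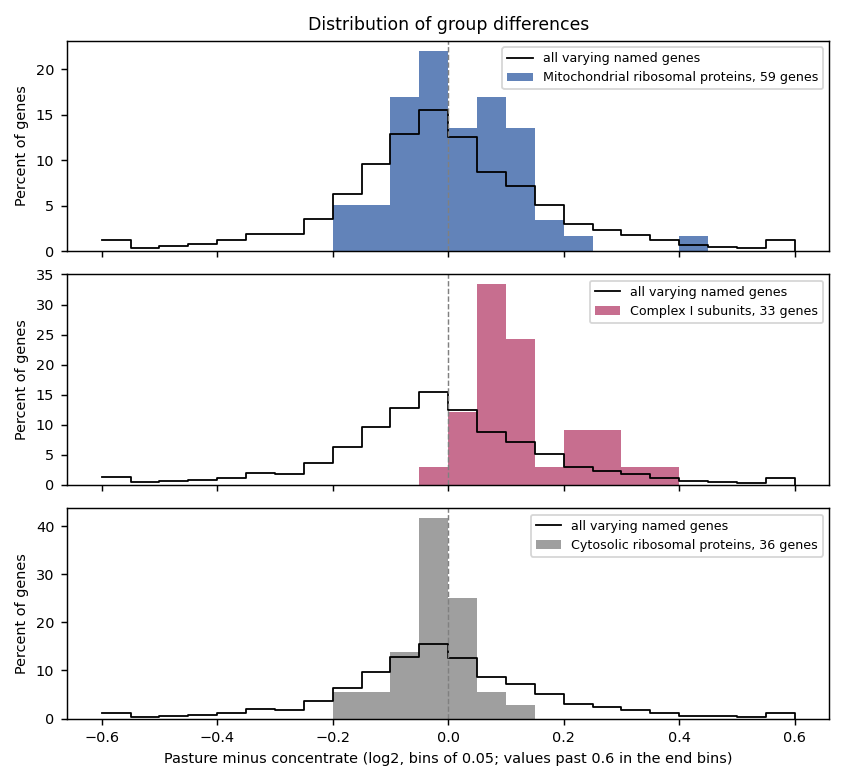
Distribution of the group difference (x axis, outdoor/pasture-fed minus indoor/concentrate-fed in log2 units, y axis, percent of genes) for 59 mitochondrial ribosomal protein genes, 33 complex I genes and 36 cytosolic ribosomal protein genes that vary, with all varying genes of 1 symbol as a black outline. The mitochondrial ribosomal protein genes lie on both sides of 0, and 32 of the 33 complex I genes lie above it.

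From animal to animal, indoor/concentrate-fed replicate 4 was above the mean in all 33 varying complex I genes as well. Outdoor/pasture-fed replicates 1, 4 and 6 were above it in 32, 32 and 31 of them. The families parted on other arrays. In outdoor/pasture-fed replicate 3, 24 of 33 complex I genes but 18 of 59 mitochondrial ribosomal protein genes were above the mean, and in indoor/concentrate-fed replicate 7 it was 11 and 40, respectively. The medians of the complex I genes per animal ran from -0.055 over 0.100 to 0.13 in outdoor/pasture-fed and from -0.15 over -0.067 to 0.10 in indoor/concentrate-fed animals.

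**Figure D5:**
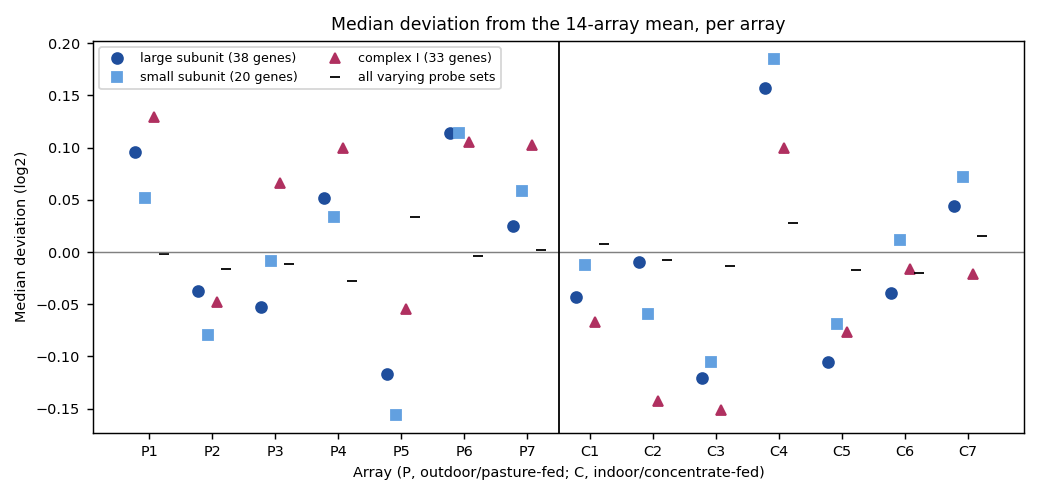
Median deviation from the mean over the 14 arrays (y axis, log2 units) on each array (x axis) for the 38 large subunit and 20 small subunit genes, 33 complex I genes and all varying probe sets. The medians of large and small subunit genes have the same sign on every array except C6 (-0.039 and 0.011, respectively). C4 is the highest array for both, while the medians of all varying probe sets stay within -0.028 and 0.034.

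Other genes of mitochondrial translation were examined in lists. The 5 further ribosomal protein genes measured under other symbols all varied, 2 higher and 3 lower, none at an unadjusted *p* under 0.05. *PTCD3*, a pentatricopeptide repeat protein of the small subunit, differed by 0.13 (SE 0.084) and *CHCHD1*, also of the small subunit, by -0.12 (SE 0.073). Of 12 translation factor and insertase genes measured 9 varied, 5 higher and 4 lower. *OXA1L* inserts newly made proteins into the inner membrane at the tunnel exit. It was the 1 gene of this list at an unadjusted *p* under 0.05, or 11.1% beside 19.9% of all varying probe sets. It had a mean of 11.46 ± 0.13 (SD, n = 7) in outdoor/pasture-fed and 11.15 ± 0.22 (SD, n = 7) in indoor/concentrate-fed animals, a difference of 0.31 ± 0.097 (SE, exact permutation *p* = 0.012, limma adjusted *p* = 0.267). *GUF1*, a translational GTPase, differed by 0.22 (SE 0.12). The elongation factor *TUFM* differed by 0.048 (SE 0.045).

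Of 17 assembly and ribosomal RNA modification genes only 6 varied, 4 higher and 2 lower, none at an unadjusted *p* under 0.05. The assembly factor *MPV17L2* differed by -0.37 (SE 0.18) and the rRNA methyltransferase *MRM2* by 0.33 (SE 0.22). Among 15 mitochondrial tRNA synthetase genes 5 varied, 3 higher and 2 lower, with 0.17 (SE 0.093) for *NARS2* and -0.074 (SE 0.053) for *AARS2*. Of 13 genes for transcription of mitochondrial DNA and processing of its RNA 7 varied, 4 higher and 3 lower. At an unadjusted *p* under 0.05 2 were higher and 1 lower, 42.9% of the 7 beside 19.9% of all varying probe sets. *GRSF1*, an RNA granule protein, differed by 0.19 ± 0.059 (SE, n = 7 per group, exact permutation *p* = 0.0064, limma adjusted *p* = 0.262), and *TRMT10C*, a subunit of mitochondrial ribonuclease P, by 0.22 ± 0.071 (SE, n = 7 per group, exact permutation *p* = 0.0012, limma adjusted *p* = 0.265). *POLG*, the DNA polymerase of mitochondria, differed by -0.096 (SE 0.038, limma adjusted *p* = 0.365). Of 8 regulators of nuclear mitochondrial genes 7 varied, 1 higher and 6 lower. *TFEB*, a regulator of lysosome genes, differed by -0.17 (SE 0.067, limma adjusted *p* = 0.372) and *ATF5*, of the mitochondrial stress response, by -0.34 (SE 0.17). *TFEB* was the 1 gene of this list at an unadjusted *p* under 0.05, or 14.3% beside 19.9% of all varying probe sets. No gene of these 6 lists passed the adjusted threshold.

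The 9 muscle fibre markers measured had a mean log2 level of 13.7 to 13.8 on every array, where the median probe set lay between 6.77 and 6.84. Of the 9, *ACTA1*, *MB*, *CKM* and *TNNT3* were flat. Among the others, *MYH1*, a fast myosin heavy chain, differed by 0.14 (SE 0.029, limma adjusted *p* = 0.148) and *TNNC2*, fast troponin C, by -0.015 (SE 0.0044, limma adjusted *p* = 0.250). The SD of *TNNC2* was 0.011, close to the bound of 0.01 for varying. Its limma adjusted *p* was 0.797 when the varying probe sets were fitted alone. Endothelial markers moved with the groups. Of 7 measured, *VWF* and *EGFL7* were flat, and the other 5 were higher in outdoor/pasture-fed animals, each at an unadjusted *p* under 0.05. That level was reached in that direction by 9.23% of all varying probe sets. *PECAM1*, an adhesion protein of endothelium, did not overlap between groups (10.22 ± 0.26 against 9.68 ± 0.15, SD, n = 7 each), and *CDH5*, the cadherin of endothelial junctions, differed by 0.59 (SE 0.15). The mean level of the 7 markers ran from 8.24 to 8.54 in outdoor/pasture-fed and from 7.88 to 8.25 in indoor/concentrate-fed animals, and their part in the differences of *MRPL50*, *MRPL39*, *MRPL44* and *MRPL3* was not tested. None of the varying adipocyte (6), leukocyte (5), fibroblast (6) and red blood cell (2) markers reached an unadjusted *p* under 0.05. Arrays correlated with one another at 0.952 to 0.990 over all varying probe sets.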

How the data were processed

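Total RNA of LD muscle from 14 heifers was amplified into cDNA, which was fragmented, labelled and hybridised to Affymetrix Bovine arrays. Quantile normalisation and FARMS summarisation of each probe set were done by the authors, who deposited log2 values. Their filter for informative probe sets rests on the single probes and was left out here. From the 24128 rows, 112 controls were left out, and differences between groups were fitted over all 24016 others with lmFit and eBayes of limma 3.58.1 (R 4.3.3). The adjustment was that of Benjamini and Hochberg, at a threshold of 0.05. The fit was tested on simulated data. A probe set with an SD above 0.01 over the 14 arrays was called varying; 14393 (59.9%) were not. Two-sided exact permutation tests enumerated 3432 assignments, and the smallest *p* they can give is 0.000583. Precision is limited by how many arrays there are.

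Gene symbols came from the platform annotation, in which 13292 probe sets have 1 symbol, 86 several and 10638 none. All 67 genes matched RefSeq (ARS-UCD2.0) by gene identifier. The genes, classes and lists were chosen with earlier results of these data known. Genes named with values are those past the adjusted threshold, those whose groups do not overlap and the 10 varying ones with the smallest limma *p* in each direction, and in other lists those past the threshold or the 2 with the smallest *p*; *TUFM*, *POLG* and the 5 genes of largest spread were added after their values were seen. Lists hold current and older symbols. A search of promoters for motifs was planned but not run, as no promoter sequences were used here. The labels name no batch. Same-numbered arrays of the groups were not paired, as their deviations from group means correlated between -0.18 and 0.24.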

Additional observations from a re-analysis of the deposited data

Results flagged for a closer look

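In 2 of 50 sets of 7 animals checked, the lowest animal stood apart from the others of its group by more of the range than Dixon's 95% critical value for 7 animals allows, where chance gives about 1 set in 20. *MRPL28* was at 7.63 in indoor/concentrate-fed replicate 3, and the other animals of that group lay between 7.88 and 8.04. The gap was 0.603 of the range. Its lowest value of all, 7.35 in outdoor/pasture-fed replicate 3, stood apart by less than that value in its own group. *MRPL9* was at 11.29 in outdoor/pasture-fed replicate 5, and the others lay between 11.58 and 11.74, a gap of 0.643 of the range.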

How the results depend on the processing

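No mitochondrial ribosomal protein gene passed the adjusted threshold under any of 25 settings, 14 of which left out 1 array. All 480 alternative values of the 20 named genes kept their direction and their side of the threshold, with a lowest adjusted *p* of 0.101. These genes were chosen by their *p* on the same arrays, so a kept direction is no independent support. The other varying genes were not counted in this way. The count of genes higher at an unadjusted *p* under 0.05, 4 as reported, was 7 with the replicate block, 7 with arrays centred on the median of the varying genes of the family, a setting chosen after seeing the data, 3 when only varying probe sets were fitted, and from 3 to 10 when 1 array was left out. The count of lower genes, 3 as reported, was 6 with every probe set of a gene counted, 2 with the replicate block, and from 1 to 4 when 1 array was left out. *MRPL50*, *MRPL39* and *MRPS26* kept an unadjusted *p* under 0.05 in every fit, whereas *MRPL3* lost it with only varying probe sets and with centring on the family, *MRPL20* with that centring and in 2 fits that left out an array, *MRPL23* with the replicate block (0.052), with array weights (0.060) and in 8 such fits, and *MRPL44* in 9. The cause of these shifts was not tested, except that counting every probe set adds probe sets of the same genes. The share of all varying probe sets at that level was not counted under these settings, so the counts stand without it. The median difference, 0.0039, ran from -0.012 to 0.031 with 1 array left out and from -0.00015 to 0.017 under the other settings, on both sides of 0.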
